A study of Mus musculus with 8 samples.

Results

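The alpha subunits of heterotrimeric G proteins were followed in mouse hearts: Gnaq, Gna11, Gna12, Gna13, Gnas, Gnai1, Gnai2, Gnai3 and Gnao1. They were chosen by the gene name that the array files give each non-control probe, and every probe with 1 of the 9 names was kept, which gave 25 probes of 9 genes among the 27745 gene names on the array. RNA of 8 hearts was measured, 1 heart and 1 single-colour array (Cy3) per mouse: 4 wild-type (WT) hearts and 4 hearts labelled as overexpressing PKR2. All mice were male and 12 weeks old. PKR2 was taken to stand for prokineticin receptor 2, which passes the signal of secreted prokineticin peptides to G proteins. The labels give neither the promoter of the transgene nor the cells that carry it. They also do not give whether the PKR2 mice come from 1 line or the WT mice are littermates. The p-values thus measure the spread between these mice together with that between their arrays, 1 per mouse. The probe for Prokr2, the receptor's own gene, was well above background on 0 of 8 arrays (mean level -6.12 in WT and -6.46 in PKR2 hearts), and whether the transgene contains the sequence this probe reads is not given in the sources used here, so it does not check the labels. The probes of Prokr1 and Prok2 were also above background on no array, and of the 2 probes for Prok1 1 was above background on all 8.

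An activated receptor makes the alpha subunit exchange GDP for GTP and part from the beta-gamma dimer, after which both can act on effectors until the alpha subunit hydrolyses its GTP. Gq and G11 activate phospholipase C beta and through it calcium release and protein kinase C. G12 and G13 act on guanine nucleotide exchange factors. Gs stimulates adenylyl cyclase, and the Gi subunits inhibit it. In heart muscle Gs carries the response to beta-adrenergic agonists, Gi proteins the response to muscarinic agonists, and Gq and G11 that to endothelin, angiotensin and alpha1-adrenergic agonists.

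The locus with the most probes, Gnas, makes several transcripts from separate promoters that share their downstream exons. For the array's 8 Gnas probes the files name several different transcripts. The 120 bases just upstream of 3 annotated Gnas starts are printed. They are the most upstream start, which gives the Nesp55 type of transcript, an internal start at the noncoding exon 1A, and the start of the Gs alpha transcript itself. Which probe reads transcripts from which start was not tested. Sequences are from RefSeq's promoter table for GRCm38.p6, plus strand, 5′ to 3′. Capitals mark matches on either strand to a pair of motifs of common promoter elements. One is GGGCGG, called the GC box. The other, called the TATA box, was searched as TATAAA. Every match in these 3 stretches reads on the minus strand and so appears as its reverse complement.

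Gnas most upstream start, chr2:174284200-174284319: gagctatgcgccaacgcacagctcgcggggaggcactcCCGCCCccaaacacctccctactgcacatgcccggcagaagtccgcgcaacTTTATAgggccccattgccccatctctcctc

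Gnas exon 1A start, chr2:174327629-174327748: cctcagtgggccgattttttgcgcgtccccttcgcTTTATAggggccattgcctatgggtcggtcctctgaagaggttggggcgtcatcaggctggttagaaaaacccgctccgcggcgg

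Gnas Gs alpha start, chr2:174329886-174330005: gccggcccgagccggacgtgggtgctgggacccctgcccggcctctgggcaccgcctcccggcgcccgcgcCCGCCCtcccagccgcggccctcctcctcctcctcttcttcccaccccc

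The Gs alpha start had a promoter window (300 bases, 250 of them before the start) of 81.7% GC with 3 GC boxes and no TATAAA. The window of the most upstream start held 61.0% GC with 1 GC box and 1 TATAAA, and that of exon 1A 64.3% GC with no GC box and 1 TATAAA. Another Gnas window, for a start a few bases after that of exon 1A, overlaps it and also held 64.3% GC, no GC box and 1 TATAAA. Among all 32851 windows of the table the median GC content was 52.7%, 35.7% held a GC box and 13.6% held TATAAA. The table held a window for 8 of the 9 genes, Gnai2 having none, and the 11 windows together ran from 59.3% GC (Gnai3) to 81.7% (Gs alpha). No window of the other genes held TATAAA, and none of the 11 held the cyclic AMP response element TGACGTCA, which 1.79% of all windows hold. GC boxes were found in the windows of Gnaq (5), Gna11 (2), Gna12 (7), Gna13 (3) and Gnai1 (3) and not in those of Gnai3 and Gnao1. These are matches of letters and not sites shown to be used.

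Levels below are log2 processed signal minus the 75th percentile of the array's non-control spots, so 0 is that percentile, and are given as mean ± SD with n = 4 hearts per group. A difference is PKR2 minus WT on this log2 scale, and its 95% interval and p come from limma over all 22717 tested probes. A probe was tested where it stood well above background on at least 3 of 4 arrays of a group. Levels of different probes are not compared, since each probe binds with its own strength. Between 48.3% (WT 2) and 67.1% (PKR2 1) of spots were well above background, and the 75th percentile of signal lay between 40.9 (WT 2) and 770 (PKR2 1). The arrays lay on 6 slides, slide 5 holding WT 3 and PKR2 3 and slide 6 holding WT 4 and PKR2 4. Every PKR2 array lay at position 4 of its slide, and of the WT arrays WT 1 alone did. WT 2, WT 4 and PKR2 4 were scanned over a low range and the others over an extended one. Cardiomyocyte markers were measured in every heart: 10 of 10 were tested, with a median difference of 0.078. Probe positions are those of build mm8, per the file headers; no annotation of that build was used here, so exon, intron or UTR is not assigned.

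All 9 G alpha genes were detected in the heart by at least 1 probe on all 8 arrays. Of the 25 probes, 16 stood well above background on all 8 arrays, 4 on some and 5 on none, and 18 were tested. In PKR2 hearts 12 of the 18 were higher and 6 lower, with a median difference of 0.076 (0.019 over all tested probes, of which 54.2% were higher). Scaled by the array median in place of the 75th percentile, 9 were higher and 9 lower, and 41.0% of all tested probes were higher (41.8% after normexp background correction, with 12 members higher). Not one of the 18 passed an adjusted p of 0.05 (limma, Benjamini-Hochberg), and the same fit called 0 of 22717 probes in all (0%). At an unadjusted p under 0.05 there were 2 of 18, 1 higher (Gna12) and 1 lower (Gnai1), where 2.58% of all tested probes lay under that value, 1.39% higher and 1.19% lower. The values of the 2 groups overlapped for every member probe, while 1.83% of all tested probes had groups that did not overlap (1.06% with PKR2 higher and 0.77% with PKR2 lower). The adjusted p of each of the 18 was 0.9997. For 14 of the 18 the 95% interval of the difference lay between -1 and 1, that is under a 2-fold difference either way, and for 6 it lay between -0.5 and 0.5.

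**Figure D1:**
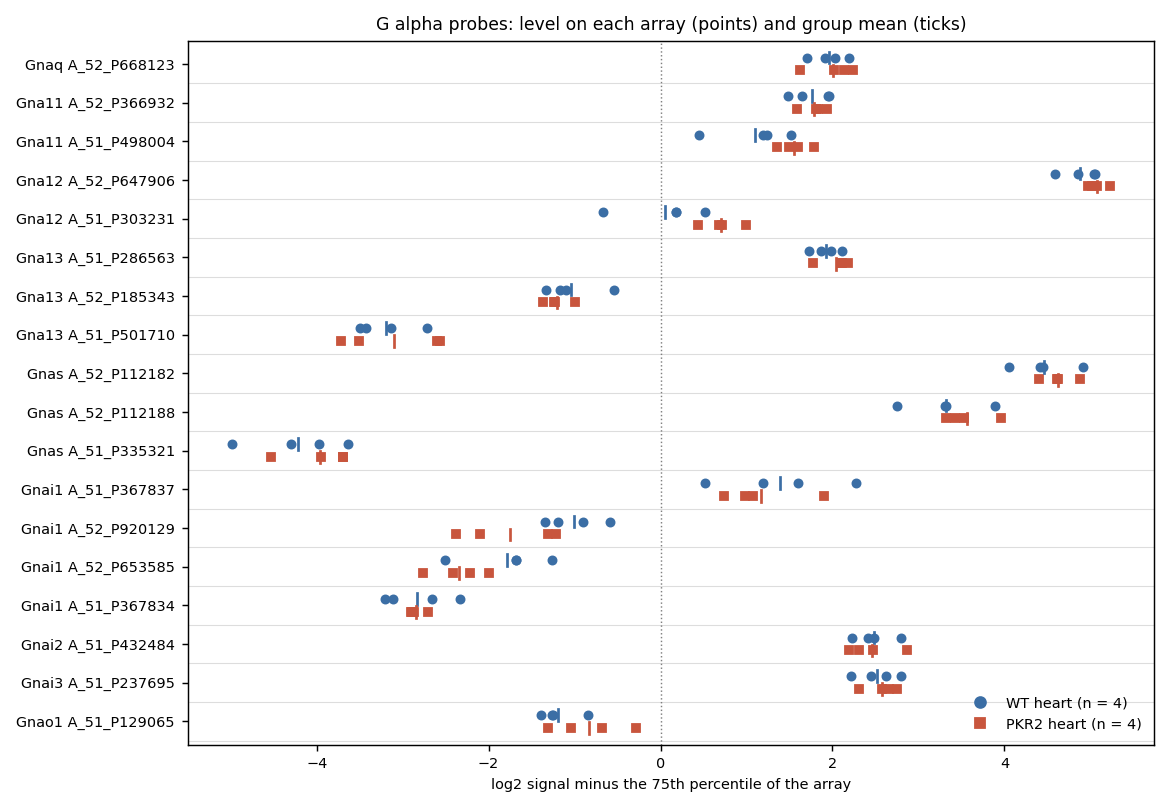
Level of each tested G alpha probe on each array, as log2 signal minus the array's 75th percentile; blue circles are the 4 WT hearts, red squares the 4 PKR2 hearts and ticks the group means. The groups overlap for all 18 probes, and the Gna12 probe A_51_P303231 and the Gnai1 probe A_52_P920129 have means furthest apart.

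Gnaq, the alpha subunit of Gq, was read by 1 probe, A_52_P668123 (chromosome 19, 16452369 to 16452428). Its level was 1.71, 2.02, 2.19 and 1.91 in WT 1 to WT 4 and 1.62, 2.24, 2.02 and 2.14 in PKR2 1 to PKR2 4. The lowest and the highest value were both from PKR2 hearts. Means of 1.96 ± 0.20 and 2.0 ± 0.27 gave a difference of 0.045 (95% interval -0.37 to 0.46, exact permutation p = 0.80), and within slide 5 PKR2 3 was below WT 3 (-0.18) while within slide 6 PKR2 4 was above WT 4 (0.23).

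Gna11, which couples to the same effectors as Gnaq, had 2 probes of 1 transcript with different differences. The downstream probe A_52_P366932 (chromosome 10, 80932055 to 80932114) measured 1.76 ± 0.23 in WT hearts and 1.79 ± 0.15 under PKR2, which differ by 0.033 (95% interval -0.34 to 0.41). The probe 2.42 kb upstream of it, A_51_P498004 (80934479 to 80934538), read 1.52, 1.19, 1.24 and 0.45 in WT 1 to WT 4 against 1.78, 1.36, 1.60 and 1.49 in PKR2 1 to PKR2 4. WT 4 stood lowest, and WT 1 lay inside the PKR2 range. The difference at this probe was 0.46 (SE 0.23, exact permutation p = 0.086), and 0.24 without WT 4. Against WT 1 alone, with array position in the fit, it was 0.040. The differences of the 2 probes were 0.43 apart (exact permutation p = 0.086, adjusted 0.40 over the 14 pairs of tested probes of 1 gene).

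Gna12 and Gna13 encode the alpha subunits of G12 and G13. For Gna12 the upstream probe A_51_P303231 (chromosome 5, 141012697 to 141012756) gave 0.51, 0.18, 0.17 and -0.67 in WT 1 to WT 4 and 0.99, 0.44, 0.72 and 0.68 in PKR2 1 to PKR2 4. WT 4 was the lowest of all, and the groups overlapped because WT 1 exceeded PKR2 2. The WT mean was 0.050 ± 0.50 and the PKR2 mean 0.71 ± 0.23. They differ by 0.66 (SE 0.25, 95% interval 0.093 to 1.22), or 1.58-fold. The unadjusted limma p was 0.027, the exact permutation p 0.057 and the adjusted limma p 0.9997. Each slide with both groups had the PKR2 heart higher, by 0.55 on slide 5 and by 1.35 on slide 6, the slide of WT 4. Without WT 4 the difference was 0.42, and against WT 1 alone, with array position in the fit, 0.19.

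The downstream Gna12 probe, A_52_P647906 (141011047 to 141011106), lies 1.65 kb further along the transcript. It read 4.86, 5.06, 5.04 and 4.58 in WT 1 to WT 4 and 5.02, 5.23, 5.07 and 4.97 in PKR2 1 to PKR2 4, again with WT 4 lowest. Its difference was 0.19 (95% interval -0.17 to 0.55). The difference was thus 0.46 larger at the upstream probe (exact permutation p = 0.086, adjusted 0.40 over the 14 pairs). The gene's 2 probes name different transcripts in the file, and which of them the heart uses was not tested.

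Gna13 was read by 3 probes on chromosome 11 that did not share a direction. The probe A_51_P286563 (109217062 to 109217121) measured 1.93 ± 0.16 in WT hearts and 2.04 ± 0.18 under PKR2, which differ by 0.12 (95% interval -0.24 to 0.48). At A_52_P185343, 20.7 kb upstream, the means were -1.04 ± 0.35 and -1.21 ± 0.16, a difference of -0.17 (95% interval -0.61 to 0.27); WT 4 was highest there, at -0.54, and every other array lay between -1.37 and -0.99. The third, A_51_P501710, was above background on 6 of 8 arrays, missing WT 2 and PKR2 2, and its difference was 0.098 (95% interval -0.58 to 0.78).

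**Figure D2:**
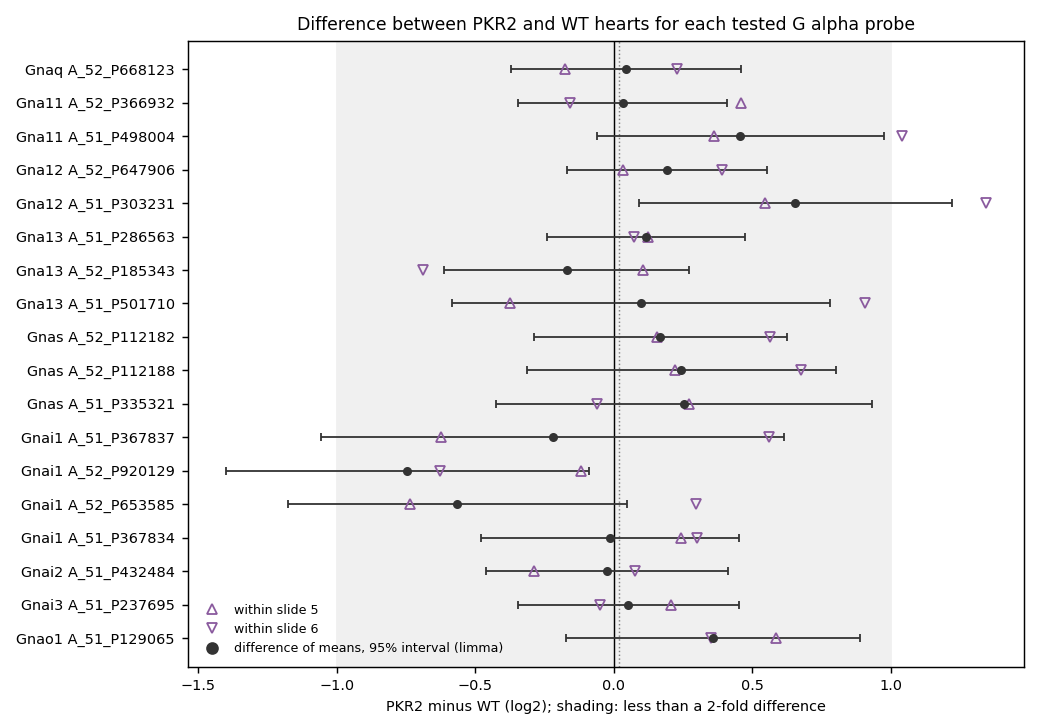
PKR2 minus WT difference (log2) of each tested G alpha probe with its 95% interval from limma (dots and bars); triangles are the single differences within slide 5 (up) and slide 6 (down), and shading marks less than a 2-fold difference. Intervals of 2 probes, Gna12 A_51_P303231 and Gnai1 A_52_P920129, exclude 0, neither past an adjusted p of 0.05.

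Gnas encodes Gs alpha, and its 7 placed probes spread over 57.5 kb of chromosome 2. The 2 most downstream probes were above background on all 8 arrays. For 1 of them, A_52_P112188, the file names the same transcript as for A_52_P190394, which lies 15.6 kb from the most upstream probe. The names thus do not set Gs alpha apart, and the signal of these 2 probes is not assigned to 1 Gnas transcript. A_52_P112182 (173984834 to 173986163, so read across an intron) gave 4.91, 4.41, 4.45 and 4.06 in WT 1 to WT 4 and 4.88, 4.40, 4.61 and 4.62 in PKR2 1 to PKR2 4. WT 4 was lowest and WT 1 highest, with PKR2 1 next to it. The means were 4.46 ± 0.35 and 4.63 ± 0.20, which differ by 0.17 (95% interval -0.29 to 0.63, exact permutation p = 0.46). A_52_P112188, 219 bases upstream, put the arrays in nearly the same order, from 2.75 in WT 4 to 3.97 in PKR2 1, and its difference was 0.24 (95% interval -0.31 to 0.80). Single arrays moved these differences by more than 1.5 times. At A_52_P112182 the difference was 0.034 without WT 4, 0.32 without WT 1 and 0.084 without PKR2 1. At A_52_P112188 the same 3 values were 0.056, 0.44 and 0.11.

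The other Gnas probes were near or below the background. A_52_P219393, the most upstream probe, from the transcript of the Nesp55 type, and the probes 15.6 kb (A_52_P190394, for which the file names the same transcript as for A_52_P112188) and 17.4 kb (A_51_P326769, from the XL alpha s transcript, which makes a longer form of the subunit) further along were above background on 0 of 8 arrays. The unplaced probe A_52_P431319, also from an XL alpha s form, was above background on PKR2 3 alone. A_52_P94874, 44.1 kb from the first, was above background on WT 3 and PKR2 1 only. A_51_P335321, 48.4 kb along and drawn from a noncoding RNA that spans exon 1A, was above background on WT 3, WT 4 and 3 PKR2 hearts, PKR2 2 missing, with a difference of 0.25 (95% interval -0.43 to 0.93). Among these probes there was no group difference in detection beyond 1 array, and a level below background sets no lower limit on the transcript. The probes carry positions in mm8 and the printed starts in GRCm38.p6, so the 2 are not placed on 1 map here.

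**Figure D3:**
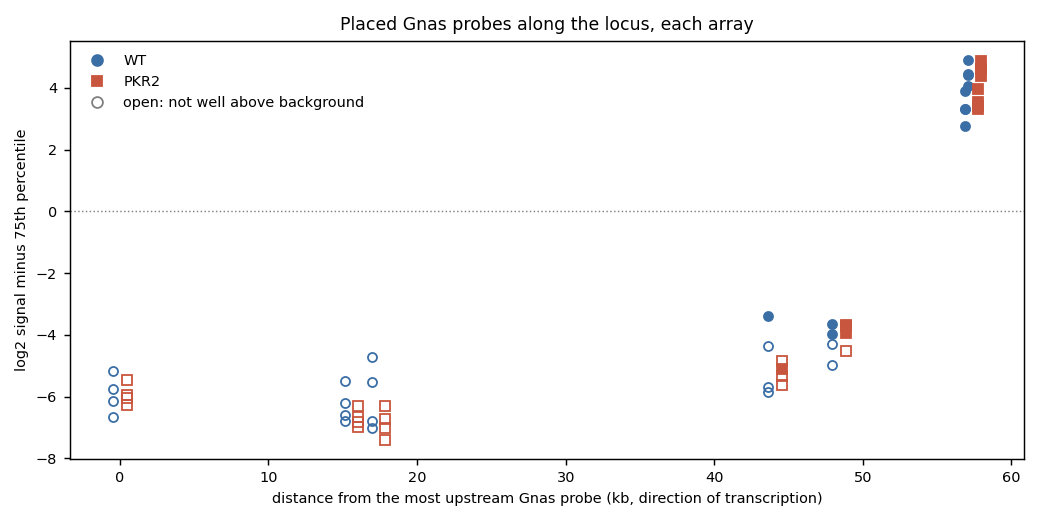
Level (log2 signal minus the array's 75th percentile) of the 7 placed Gnas probes on each array by distance from the most upstream probe in kb; circles are WT and squares PKR2 hearts, drawn slightly left and right of the probe's place, and open symbols are not well above background. The probes at 57.3 and 57.5 kb are filled on all 8 arrays in both groups, and the 3 probes at 0, 15.6 and 17.4 kb are open on all.

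Gnai1 was the member with the most tested probes, 4 along chromosome 5, and all 4 were lower in PKR2 hearts on average, although A_51_P367837 turned after normexp (0.033) and A_51_P367834 in the authors' deposited values (0.069). The most downstream, A_52_P920129 (17777083 to 17777142), read -1.34, -0.90, -1.19 and -0.59 in WT 1 to WT 4 and -2.38, -2.10, -1.31 and -1.21 in PKR2 1 to PKR2 4. PKR2 1 and PKR2 2 stood below all others, and PKR2 3 and PKR2 4 lay within the WT range. The means of -1.01 ± 0.33 and -1.75 ± 0.58 differed by -0.75 (SE 0.29, 95% interval -1.40 to -0.090), that is 0.597-fold, with an unadjusted limma p of 0.030, an exact permutation p of 0.11 and an adjusted limma p of 0.9997. Within slide 5 the difference was -0.12 and within slide 6 it was -0.63.

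The most upstream Gnai1 probe, A_52_P653585 (17801439 to 17803308, across an intron), gave -1.68, -1.26, -1.68 and -2.51 in WT 1 to WT 4 and -2.76, -2.0, -2.42 and -2.21 in PKR2 1 to PKR2 4. PKR2 1 was lowest and WT 4 next. The difference was -0.56 (95% interval -1.18 to 0.049), with -0.74 within slide 5 and 0.30, the other way, within slide 6. The 2 probes between them, A_51_P367837 and A_51_P367834, overlap by 30 bases and are not independent. They gave differences of -0.22 (95% interval -1.06 to 0.62) and -0.012 (95% interval -0.48 to 0.45). Among pairs of Gnai1 probes the smallest p was that of A_52_P653585 against A_51_P367834, whose differences were -0.55 apart (exact permutation p = 0.057, adjusted 0.40 over the 14 pairs).

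Markers of fat cells were low in the same 2 hearts as A_52_P920129. Of 13 adipocyte marker genes on the array 12 were tested, and all 12 were lower on average in PKR2 hearts. Their mean centred score was 1.15, 1.30, -0.13 and 1.09 in WT 1 to WT 4 and -2.31, -1.86, 0.43 and 0.33 in PKR2 1 to PKR2 4; the defining markers Adipoq and Plin1 were above background on all 8 arrays. PKR2 1 and PKR2 2 were lowest, and the other PKR2 hearts lay above WT 3. The score of 6 Schwann cell and neuronal markers, 4 of them lower in PKR2 hearts, was also lowest in PKR2 1 (-0.23) and PKR2 2 (-0.20), with the other 6 hearts between -0.066 and 0.23. The largest difference among these markers was that of S100b (-1.05, limma, adjusted p = 0.9997), and the part of this list in the Gnai1 values was not tested. In a fit that includes the adipocyte score the difference at A_52_P920129 was -0.13 (SE 0.27), and that at A_52_P653585 was -0.49 (SE 0.39). At A_51_P367837 it moved away from 0, from -0.22 to -0.35 (SE 0.52). At A_51_P367834 it went from -0.012 to 0.053 (SE 0.29). The adipocyte score itself differed between the groups, with a mean of 0.85 in WT and -0.85 in PKR2 hearts. This fit thus cannot tell fat content from group, and the part of fat cells in the Gnai1 values was not tested. In whole hearts fewer cells of a type and less RNA per cell cannot be told apart.

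**Figure D4:**
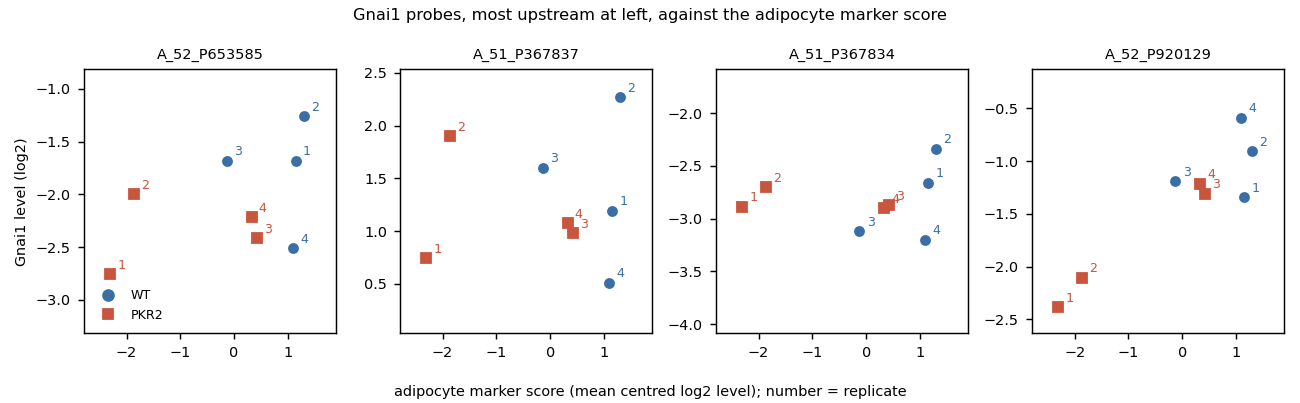
Level of the 4 Gnai1 probes (log2, 1 panel each, most upstream at left) against the adipocyte marker score of the same heart; circles are WT, squares PKR2 and numbers the replicate. In the right panel, A_52_P920129, the PKR2 hearts 1 and 2 are lowest on both axes, and in the panels of A_51_P367837 and A_51_P367834 the level of PKR2 2 lies within the WT range while its score does not.

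Gnai2 and Gnai3, the other 2 Gi subunits, had small mean differences. The Gnai2 probe A_51_P432484 (chromosome 9, 107473725 to 107473784) ran from 2.23 to 2.80 in WT and from 2.19 to 2.86 in PKR2 hearts, a difference of -0.024 (95% interval -0.46 to 0.41). The Gnai3 probe A_51_P237695 (chromosome 3, 108235737 to 108235796) ran from 2.21 to 2.80 and from 2.31 to 2.75, a difference of 0.053 (95% interval -0.35 to 0.45). Both intervals stay below 0.5 on either side, but a difference inside them would not have been detectable with 4 hearts per group.

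Gnao1 encodes Go alpha, the most abundant G alpha of brain, which occurs in spliced forms A and B. Its probe A_51_P129065 (chromosome 8, 96857699 to 96857758) was above background on all 8 arrays. It read -0.84, -1.26, -1.26 and -1.40 in WT 1 to WT 4 and -0.29, -1.31, -0.68 and -1.04 in PKR2 1 to PKR2 4. PKR2 1 and PKR2 3 were highest, and PKR2 2 lay among the WT hearts. The difference was 0.36 (SE 0.24, 95% interval -0.17 to 0.89, exact permutation p = 0.23), with 0.59 within slide 5 and 0.35 within slide 6. Without PKR2 1 it was 0.18, and against WT 1 alone, with array position in the fit, 0.012. The 2 probes for form B, A_52_P205037 and A_52_P205031, lie upstream, the further one by 14.5 kb, and were above background on no array.

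Single hearts stood at the ends of the range unevenly over the 18 tested probes. WT 4 was the lowest or the highest of the 8 arrays at 13 of 18, lowest at 8 and highest at 5; over all tested probes WT 4 was at 1 end for 33.8%. PKR2 1 was at 1 end for 9 of 18 (37.6% of all tested probes), and PKR2 3 and PKR2 4 for 1 each (10.7% and 12.1%). Both probes of Gna12 and both downstream Gnas probes were among those with WT 4 lowest, and probes of 1 gene share their RNA, so the 18 are not independent.

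The named gene whose level followed each member most closely over the 8 arrays was sought among 20007 to 20010 other tested probes with a gene name. It was Dnm3os for Gnaq (Pearson r 0.983), Ak3 for Gna11 (0.965), Grb10 for Gna12 (0.981) and Fbxo46 for Gna13 (0.981). For Gnas it was Sirt1 (0.994), for Gnai1 Pdpk1 (0.990), for Gnai2 Cmbl (0.979), for Gnai3 Slc35b3 (0.966) and for Gnao1 Intu (0.971). Each used the member's brightest tested probe, and its r is the highest of many over 8 arrays that share 1 scaling step, so it is a description alone. Between 58 (Gna11) and 357 (Gnas) probes had an r above 0.9 with the member.

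The partners and effectors of the G alpha subunits showed the same lack of calls: no gene of the 8 lists that follow passed an adjusted p of 0.05 (limma, 0% of all probes). Values here are each gene's brightest tested probe, for which the median difference over all 15638 genes was 0.0015 and 50.4% were higher. Of the other G alpha genes 2 were tested, Gna15 (0.13) and Gnaz (0.27, above background on 5 of 8 arrays); both were below 0 after normexp, with a median of -0.56. The 5 G beta genes included 4 that were higher, and ran from Gnb2 (0.34, 95% interval -0.043 to 0.73) down to Gnb4 (-0.19). Their median was 0.22, with 3 or 4 of 5 higher under each other scaling. The 7 tested G gamma genes had a median of 0.021 (4 higher, 2 to 5 under other scalings) and ran from Gng2 (-0.071) to Gng8 (0.35, above background on 7 of 8 arrays).

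Of the 12 tested genes downstream of Gq, 7 were higher and 5 lower (6 to 8 higher under other scalings), with a median of 0.039. Plcb1, a phospholipase C that Gq activates, had a WT mean of -2.62 ± 0.72 and a PKR2 mean of -3.56 ± 0.50, the lowest difference of the list (-0.94, 95% interval -1.76 to -0.12, limma, adjusted p = 0.9997). Plcb3 had the highest (0.26). WT 1, at -3.65, lay inside the PKR2 range of -4.12 to -2.94 for Plcb1. Of the 8 genes downstream of G12 and G13, 5 were higher (4 to 7 under other scalings; median 0.044), led by the protein kinase Rock2 (0.44, 95% interval 0.021 to 0.86, limma, adjusted p = 0.9997), and Arhgef12 was lowest (-0.11).

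The 16 tested genes downstream of Gs and Gi split evenly, 8 higher and 8 lower (7 to 11 higher under other scalings; median 0.0044), between Kcnj5, a channel opened by beta-gamma of Gi (0.52, 95% interval -0.29 to 1.34, above background on only 5 of 8 arrays), and Prkar2b. Prkar2b, a regulatory subunit of protein kinase A, read 4.83, 4.87, 3.11 and 4.60 in WT 1 to WT 4 and 1.24, 1.53, 3.44 and 3.21 in PKR2 1 to PKR2 4. PKR2 1 and PKR2 2 were lowest, as in the adipocyte score, and WT 3 was below PKR2 3 and PKR2 4. Its difference was -2.0 (95% interval -3.27 to -0.73, limma, adjusted p = 0.9997). In the fit that includes the adipocyte score it was -0.51. The same fit gave -1.07 for Plcb1 (-0.94 without the score), 0.44 for Rock2 (0.44 without it) and 0.33 for Gnb2 (0.34 without it). The score differed between the groups, so this fit cannot tell fat content from group. The part of fat cells in these values was not tested. Chaperones and exchange factors of G alpha ranged over 9 tested genes from Ric8b (-0.20) to Pdcl (0.31), with a median of -0.012 and 3 higher (2 to 6 under other scalings). Receptor kinases and arrestins, which switch receptors off, ranged over 7 from Arrb2 (-0.16) to Grk5 (0.26), with a median of -0.035 and 3 higher (3 or 4 under other scalings).

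**Figure D5:**
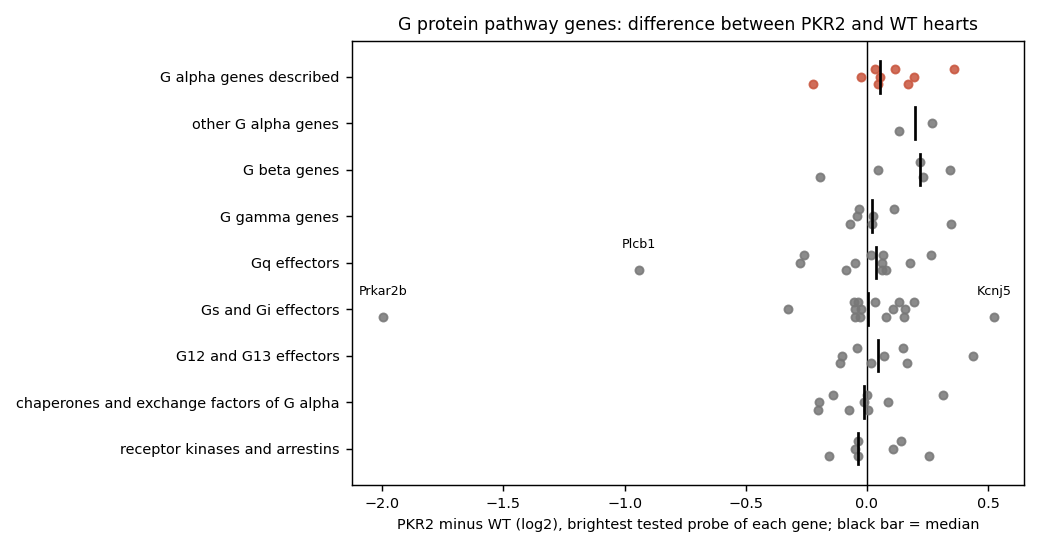
PKR2 minus WT difference (log2) of each tested gene by list, through its brightest tested probe; red points are the 9 G alpha genes described, grey points genes of the other lists and black bars list medians. Prkar2b (-2.0) and Plcb1 (-0.94) lie furthest from 0, and the 9 G alpha genes lie between -0.22 and 0.36.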

How the data were processed

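Hearts of 4 WT and 4 PKR2 mice were each measured on 1 array. Per the file headers, Agilent Feature Extraction 9.5.1.1 subtracted the background and flagged outlying spots; the deposited scanner values are linear spot intensity without normalization between arrays. The value table of the authors, whole-number scores whose normalization is not given in the sources used here, served as an alternative.

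Processed signals were taken to log2 and reduced by each array's 75th percentile of 43379 non-control spots. Controls and outlier-flagged spots were left out and spots of 1 probe averaged (41174 probes). Groups were compared in limma 3.58.1 (R 4.3.3, lmFit and eBayes, no covariate), with Benjamini-Hochberg adjustment over 22717 tested probes and a threshold of 0.05; the script was tested on simulated data. Exact permutation tests were two-sided over 70 relabelings (smallest possible p 0.0286). The number of arrays limits the precision, and the median 95% interval reached 0.48 to either side. Promoter windows came from RefSeq (GRCm38.p6), and motifs were searched on both strands.

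Named were every member, the highest and lowest gene of each other list, the gene most like each member in level, and the prokineticin genes. Members, lists and this rule were chosen with earlier results of these data known. Alternatives were other background corrections, normalizations, filters, variance models, slide, position, scan range or adipocyte score in the model, and leaving out arrays.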

Additional observations from a re-analysis of the deposited data

Results flagged for a closer look

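Of 36 groups of 4 hearts checked (18 tested probes in 2 groups), 1 had a heart far from the others. At the Gnai1 probe A_51_P367834 the level in PKR2 2 was -2.70, while the other 3 PKR2 hearts lay between -2.90 and -2.87, so the gap to the nearest was 0.871 of the whole range, above the 95% critical value of Dixon's test. The range of the 4 is narrow, and in WT hearts the same probe ran from -3.20 to -2.34. Chance alone marks about 1 group in 20.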

How the results depend on the processing

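The 18 single-probe differences were recomputed under 23 other settings, 8 of which leave out 1 array. No G alpha probe passed an adjusted p of 0.05 in any of them. Of 403 values, 358 kept their direction and 45 turned. The direction held throughout for 7 probes: Gna11 A_51_P498004, both of Gna12, Gna13 A_51_P286563, Gnai1 A_52_P653585 and A_52_P920129, and Gnao1 A_51_P129065. Gna12 A_51_P303231 kept an unadjusted limma p under 0.05 in 15 of 22 settings and Gnai1 A_52_P920129 in 14 of 22. Leaving out 1 array moved Gnao1 A_51_P129065 between 0.18 and 0.52, Gnas A_52_P112182 between 0.034 and 0.32 and Gnas A_52_P112188 between 0.056 and 0.44. Where a value turned, the cause was not tested.

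Normexp background correction moved the median of all tested probes from 0.019 to -0.12. It turned Gnas A_51_P335321 (-0.76), Gnai1 A_51_P367837 (0.033), Gnai2 (0.35) and Gna13 A_51_P501710 (-0.71). Quantile normalization turned Gnai2 (0.016). Scaling to the median turned Gnai3 (-0.0084), Gna11 A_52_P366932 (-0.028) and Gnaq (-0.016). The authors' deposited values turned Gnai3 (-0.010), Gnai1 A_51_P367834 (0.069), Gnai2 (0.059), Gna13 A_51_P501710 (-0.068) and Gnaq (-0.032). Gnai1 A_51_P367834 turned with slide as a fixed term (0.27), where only slides 5 and 6 count, as a random block (0.088) and with the adipocyte score (0.053). Without slide 6, Gna13 A_51_P501710 (-0.17), Gna13 A_52_P185343 (0.0036) and Gnaq (-0.017) turned. Array position as a covariate sets the PKR2 arrays, all at position 4, against WT 1 alone. It turned Gnai2 (0.042), Gna13 A_51_P501710 (-0.38), Gna13 A_52_P185343 (0.13), Gnas A_52_P112182 (-0.29), Gnas A_52_P112188 (-0.33) and Gna11 A_52_P366932 (-0.15).

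Leaving out 1 array at a time turned 8 probes at least once, with these ranges: Gnaq -0.039 to 0.17, Gna11 A_52_P366932 -0.060 to 0.10, Gna13 A_51_P501710 -0.079 to 0.31, Gnas A_51_P335321 -0.0017 to 0.45, Gnai2 -0.16 to 0.081, and Gnai3 -0.049 to 0.15, besides Gnai1 A_51_P367834 (-0.14 to 0.15) and A_51_P367837 (-0.51 to 0.072).

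The number of all probes past an adjusted p of 0.05, 0 in the report, was 1 with probes above background on all 8 arrays, 1 with slide as a random block, 1 with a trended robust variance, 5 with array position, and 0 to 1 leaving out 1 array (1 without PKR2 3). The number of G alpha probes with an unadjusted limma p under 0.05, 2 in the report, was 4 with normexp, 1 with scan range as a block and 0 with 1 probe per gene, array position or the adipocyte score. It was 3 with scaling to the median, slide as a random block or array weights. Leaving out 1 array, it ran from 0 (without PKR2 1) to 3. The labels give no replicate numbers. The only numbers shared between groups are those of slides 5 and 6, and with slide as a fixed term the difference at Gna12 A_51_P303231 was 0.95 and at Gnai1 A_52_P920129 -0.37.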
